A study of Mus musculus with 12 samples.

Results

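Maternal effect genes are transcribed in the growing oocyte, and their products are stored in the egg for use by the early embryo. The 10 described here are Nlrp5, Ooep, Tle6, Padi6, Nlrp14, Zar1, Npm2, Dppa3, Mos and Tcl1. They were taken by symbol, in a list drawn up with earlier results of these data known. Each was read from its probe set with the highest mean over the arrays of a table. All 10 were found among the 19938 genes of the adult table. Of these, 9 were found among the 18194 genes of the newborn table, and Npm2 was not analysed there.

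Whole mouse gonads with and without Foxl2 were profiled on arrays. Foxl2 is a transcription factor made by granulosa cells, which surround and nourish the oocyte. The adult groups, at 8 weeks, were 2 wild-type ovaries, 3 mutant ovaries given in the labels as Foxl2 flox/flox x CreEBD, and 3 wild-type testes, with a single perfused animal on each array. The newborn groups, at postnatal day 3 (P3), were 2 wild-type and 2 Foxl2 knockout (KO) ovary samples, each pooled from more than 10 females that were not perfused. The promoter driving Cre, the time at which Foxl2 was deleted and the mouse strain were not given in the sources used here. Adult levels are log2 values from RMA, and P3 levels are linear signals from MAS5, so levels are compared within a table and a gene's level is not set against another gene's.

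Many products of this group meet in the cortex of the mammalian egg. Nlrp5 (also called Mater), Ooep (Floped) and Tle6 are core members of the subcortical maternal complex, and Padi6 is required for the fibrous cytoplasmic lattices of the egg. Embryos of mothers that lack one of these genes typically stop at early cleavage. Oocyte genes are read here from whole organs, in which fewer oocytes and less RNA per oocyte cannot be told apart.

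Foxl2 followed the labels. Adult wild-type ovaries read 8.75 and 8.81, mutant ovaries 5.73 to 6.04 and testes 5.22 to 5.38, while P3 signals were 814.5 and 829.9 for wild type against 186.4 and 153.7 for KO. The median of all genes lay between 5.45 and 5.6 on the 8 adult arrays and between 323.6 and 335.9 on the 4 P3 arrays. The wild-type ovaries stood apart from each other in cell type markers: the mean of 10 oocyte identity genes (such as Gdf9, Bmp15 and Zp3) was 6.75 in ovary 1 and 5.36 in ovary 2, that of 14 granulosa cell genes was 9.33 and 8.45, and that of 4 corpus luteum genes was 8.33 and 10.69. The mutant ovaries read 6.43 to 6.61, 7.34 to 7.46 and 8.37 to 9.58 on the same lists. Foxl2 itself is among the granulosa cell genes, so its own fall enters the mutant mean. Since the wild-type ovaries stood apart, adult comparisons with wild type are given with and without each of them.

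The promoters of 4 members with clear ovarian signal are shown because oocyte transcription factors of the Figla and Nobox type bind short elements near the start of many oocyte genes. Each window holds the 250 bases before an annotated start, read from RefSeq on GRCm38.p6, 5′ to 3′ along the gene, with matches to the E-box CANNTG in capitals.
Nlrp5, chr7:23385639-23385888, plus strand: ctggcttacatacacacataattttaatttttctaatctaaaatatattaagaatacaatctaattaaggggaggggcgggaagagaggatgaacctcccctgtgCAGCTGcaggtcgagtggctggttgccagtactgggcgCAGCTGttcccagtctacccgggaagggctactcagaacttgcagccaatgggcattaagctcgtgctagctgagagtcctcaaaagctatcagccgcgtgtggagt
Ooep, chr9:78378589-78378838, minus strand: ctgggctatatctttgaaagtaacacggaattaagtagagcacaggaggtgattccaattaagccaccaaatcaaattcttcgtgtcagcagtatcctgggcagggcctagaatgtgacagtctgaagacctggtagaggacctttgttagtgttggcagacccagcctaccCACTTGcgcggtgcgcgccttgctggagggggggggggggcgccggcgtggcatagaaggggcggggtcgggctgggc
Padi6, chr4:140742644-140742893, minus strand: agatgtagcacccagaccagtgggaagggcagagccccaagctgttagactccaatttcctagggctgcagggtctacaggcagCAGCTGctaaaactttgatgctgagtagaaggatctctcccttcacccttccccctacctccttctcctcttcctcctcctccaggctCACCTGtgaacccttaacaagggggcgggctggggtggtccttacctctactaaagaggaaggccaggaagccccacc
Zar1, chr5:72581085-72581334, minus strand: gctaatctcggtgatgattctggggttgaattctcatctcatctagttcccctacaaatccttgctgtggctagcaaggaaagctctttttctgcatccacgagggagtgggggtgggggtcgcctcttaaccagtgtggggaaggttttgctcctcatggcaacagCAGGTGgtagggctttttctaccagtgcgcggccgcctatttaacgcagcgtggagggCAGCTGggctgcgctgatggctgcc
Windows were found for 6 of the 10 genes, 8 windows in all. The E-box letters, searched on both strands, occurred in 8 of 8 windows and in 66.2% of the 32851 windows of that length. The printed matches begin 145 and 107 bases before the start in Nlrp5, 78 in Ooep, 166 and 78 in Padi6, and 83 and 25 in Zar1. The homeobox element TAATTA occurred in 1 of the 8 windows, the Nlrp5 window printed above, and in 4.84% of all windows. TAATTG occurred in 1 of the 8, the Ooep window, and in 7.17% of all windows. TATAAA occurred in 1, another Nlrp5 window, and in 12.4% of all windows. No printed E-box overlaps a match to the other elements. These are matches of letters and not binding sites.

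For each of the 10 genes, the wild-type adult ovaries differed from each other by more than the mutant mean differed from the wild-type mean. Wild-type ovary 1 exceeded wild-type ovary 2 in all 10 genes, by 1.02 (Npm2) to 2.38 (Nlrp5) on the log2 scale, with a median of 1.45 against 0.02 over all genes. All 10 differed by at least 2-fold, which 1.81% of all genes did in that direction. With 1 array on each side this difference has no test. The 3 mutant ovaries lay between these animals for 9 of the 10 genes. Of all genes, 9.34% showed this arrangement, with either wild-type ovary the higher. A wide gap between the wild-type ovaries makes it easier to lie between them, so that share is not a like background for the members. The 10 genes were read from the same ovaries and are not separate observations. Averaged over the 10 genes, wild-type ovary 1 read 7.35 and wild-type ovary 2 read 5.73, beside 6.94, 7.06 and 6.71 in the mutant ovaries and 5.16, 5.20 and 5.22 in the testes.

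**Figure D1:**
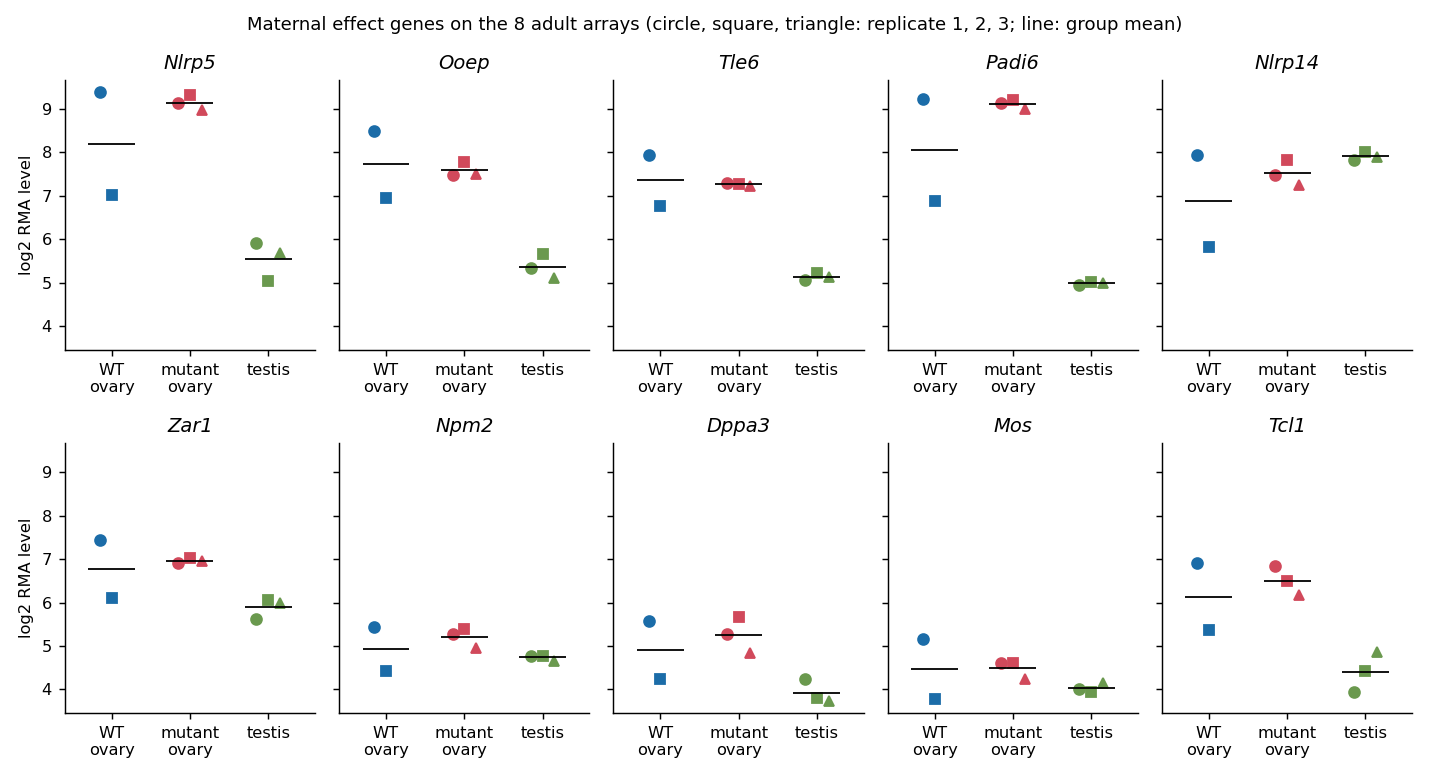
RMA level (log2) of the 10 maternal effect genes on each adult array, with 2 wild-type (WT) ovaries, 3 Foxl2 mutant ovaries and 3 testes as separate points and a line at each group mean. For Nlrp5 the wild-type ovaries read 9.39 and 7.01, the mutant ovaries 8.98 to 9.33 and the testes 5.04 to 5.91, and Nlrp14 is the member whose testes sit as high as the upper ovaries.

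Nlrp5 (adult probe set 10550795), the NLR family protein of the subcortical complex, had levels of 9.39 and 7.01 in the wild-type ovaries, 9.13, 9.33 and 8.98 in the mutant ovaries and 5.91, 5.04 and 5.68 in the testes. Its wild-type ovaries differed 5.21-fold, and the mutant ovaries sat close below the higher one. Padi6 (10517774), a member of the peptidylarginine deiminase family, read 9.22 and 6.87 in wild-type ovaries, 9.13, 9.20 and 9.0 in mutant ovaries and 4.94, 5.01 and 5.0 in testes. Its mutant ovaries spanned 0.20 while the wild-type ovaries differed 5.1-fold. Placed on a scale where ovary 2 is 0 and ovary 1 is 1, the mutant mean stood at 0.90 for Nlrp5 and 0.95 for Padi6.

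Ooep (10595159), a small protein with a KH-like domain in the same complex, read 8.50 and 6.95 in wild-type ovaries, 7.48, 7.77 and 7.50 in mutant ovaries and 5.33, 5.67 and 5.11 in testes. Tle6 (10371240), a co-repressor relative in the same complex, read 7.95 and 6.76, then 7.30, 7.27 and 7.22, then 5.06, 5.22 and 5.13 in the same order. Here the mutant ovaries lay nearer the middle, at 0.41 and 0.42 of the distance from ovary 2 to ovary 1. The 3 mutant values of Tle6 spanned 0.07, the smallest span among the 10 genes.

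Nlrp14 (10556043), an NLR family gene of germ cells, read 7.93 and 5.81 in wild-type ovaries, 7.49, 7.82 and 7.24 in mutant ovaries and 7.83, 8.02 and 7.89 in testes. All 3 of its testes lay above all 3 of its mutant ovaries. Zar1 (10530496), an RNA-binding protein of the oocyte-to-embryo transition, read 7.43 and 6.10, then 6.92, 7.02 and 6.95, then 5.61, 6.06 and 6.0. The lower wild-type ovary of Zar1, at 6.10, lay just above its highest testis, at 6.06. A further Zar1 probe set read 6.61 and 5.76, then 5.92 to 6.23, then 4.90 to 5.36, and also placed the mutant ovaries between the wild-type ones.

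Tcl1 (10402514), a co-activator of the kinase Akt, read 6.90 and 5.37 in wild-type ovaries, 6.84, 6.49 and 6.17 in mutant ovaries and 3.93, 4.43 and 4.86 in testes. Dppa3 (10541515), also called Stella, which protects DNA methylation in the zygote, read 5.57 and 4.24, then 5.27, 5.67 and 4.83, then 4.23, 3.81 and 3.73. Dppa3 was the exception to the intermediate position, since mutant ovary 2 exceeded wild-type ovary 1. Its other probe set gave 4.33 and 3.63, then 4.33, 5.02 and 3.96, then 3.29 to 3.31.

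Npm2 (10421444), a nuclear chaperone of the egg, read 5.44 and 4.42 in wild-type ovaries, 5.28, 5.39 and 4.96 in mutant ovaries and 4.78, 4.77 and 4.66 in testes. Mos (10511330), the kinase that holds the egg in metaphase through the MAP kinase cascade, read 5.16 and 3.79, then 4.60, 4.61 and 4.24, then 4.02, 3.94 and 4.15. In both genes the lower wild-type ovary was below every testis. All values of both lay below the median of all genes on the adult arrays (5.45 to 5.6), so such small differences are read with caution. Across the 10 genes wild-type ovary 2 was the lowest ovary in 10 and wild-type ovary 1 the highest in 9. Within the mutant group, ovary 2 was the highest in 8 genes and ovary 3 the lowest in 8.

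**Figure D2:**
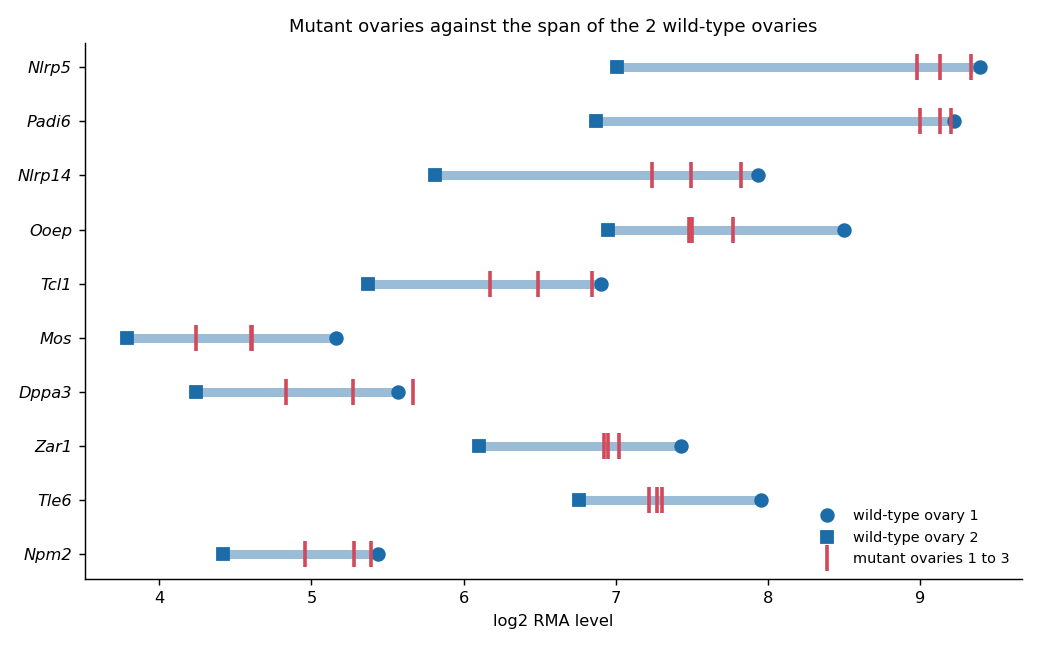
RMA level (log2) of each maternal effect gene in the adult ovaries, with a bar from wild-type ovary 2 (square) to wild-type ovary 1 (circle) and a vertical tick for each of the 3 mutant ovaries. All 3 ticks lie on the bar in 9 of the 10 genes, near its upper end for Nlrp5 and Padi6, and a Dppa3 tick at 5.67 lies above the circle at 5.57.

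Mutant and wild-type adult ovaries did not differ past the threshold in any of the 10 genes. In the limma fit 0 of 10 had an adjusted p under 0.05, and 0 of 10 an unadjusted p under 0.05, against 16.2% of all genes called by the first rule and 28.9% by the second. The differences, mutant minus wild type, ran from -0.14 for Ooep to 1.07 for Padi6 with a median of 0.32, against -0.02 over all genes. Padi6 gave 1.07 ± 0.49 (SE, 3 mutant against 2 wild-type ovaries, adjusted p = 0.185) and Nlrp5 gave 0.95 ± 0.53 (adjusted p = 0.281). Mos gave 0.00 ± 0.32 (adjusted p = 0.994). The SD within the wild-type pair was 0.72 to 1.68 over the 10 genes and within the mutant trio 0.04 to 0.42, so these differences lay within or near the spread of the wild-type ovaries.

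The comparison turned on which wild-type ovary was used. Without wild-type ovary 1, 9 of 10 genes were called higher in mutant ovaries, against 10.8% of all genes, with a median of 0.94, and 0 lower, against 8.03%. Nlrp5 was then 2.14 higher (adjusted p = 0.000313) and Padi6 2.24 higher (adjusted p = 2.02e-06), and Ooep, at 0.63, was the one not called (adjusted p = 0.0653). Without wild-type ovary 2, 0 genes were called higher and 3 were called lower, against 8.80% and 7.23% of all genes, with a median of -0.41. Ooep then fell by 0.91 (adjusted p = 0.0139), Tle6 fell by 0.69 (adjusted p = 0.00856) and Mos fell by 0.68 (adjusted p = 0.0345). In both fits the remaining wild-type ovary is assumed to vary like the other groups.

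Levels were also read relative to the mean of the 10 oocyte identity genes on the same array, which takes out the shift of that mean. These reference genes did not shift alike. Wild-type ovary 1 was higher in 9 of the 10, with a median difference of 1.87, but by only 0.32 for Sohlh1 and 0.57 for Lhx8, and Figla gave -0.43. A member's place on this scale therefore depends on the genes in the reference. On this scale 4 of 10 members had all 3 mutant ovaries below both wild-type ovaries, an arrangement that 13.9% of all genes showed. Ooep read 1.74 and 1.59 above that mean in wild-type ovaries and 0.97, 1.16 and 1.07 in mutant ovaries. Tle6 read 1.20 and 1.40 against 0.78, 0.66 and 0.79, and Zar1 read 0.67 and 0.74 against 0.40, 0.41 and 0.52. Mos read -1.59 and -1.57 against -1.92, -2.0 and -2.19. In these genes the wild-type ovaries were much closer to each other on this scale than in level. In 1 member, Padi6, all 3 mutant ovaries (2.61, 2.59 and 2.57) were above both wild-type ones (2.47 and 1.51), which 2.64% of all genes showed. The reference mean was 6.75 and 5.36 in wild-type ovaries and 6.43 to 6.61 in mutant ovaries. A gene with the same level in all ovaries thus has its mutant ovaries between the wild-type ones on this scale. The shares of all genes are therefore not a like background for genes that follow the oocyte list. This measure has no test here.

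Testes carried less of most members than wild-type ovaries. Of the 10 genes, 7 were lower in testis and 0 higher, against 35.9% and 24.4% of all genes, and the median difference was -1.36 against -0.15 over all genes. The testis minus ovary difference was -3.06 ± 0.49 for Padi6 (limma, adjusted p = 0.000286), -2.65 ± 0.53 for Nlrp5 (0.00135), -2.35 ± 0.36 for Ooep (0.000192), -2.22 ± 0.27 for Tle6 (3.43e-05) and -1.73 ± 0.41 for Tcl1 (0.0036). Zar1, at -0.87 ± 0.31 (0.032), and Dppa3, at -0.98 ± 0.36 (0.0353), also passed. For 7 of the 10 genes both wild-type ovaries lay above every testis, against 45.4% of all genes.

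Without wild-type ovary 1, 5 genes were lower in testis and 1 higher, against 32.9% and 23.8% of all genes, and Zar1 (-0.21) and Dppa3 (-0.32) were no longer called. Zar1 also lost the call without testis 1 (-0.73, adjusted p = 0.105) or testis 3 (-0.92, 0.0566), and Dppa3 without testis 2 (-0.93, 0.0871) or testis 3 (-0.88, 0.0994). The gene called higher was Nlrp14, at 2.10 (adjusted p = 4.13e-06). Without wild-type ovary 2, 9 genes were lower and 0 higher, against 33.9% and 23.5%, and Nlrp14 stood at -0.01. With both ovaries Nlrp14 was 1.04 ± 0.46 higher in testis (adjusted p = 0.0739), which did not pass. Its adjusted p ran from 4.13e-06 to 0.96 over the alternatives.

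Mutant ovaries carried more of most members than testes did. Against the testes, 7 of 10 genes were higher in mutant ovaries and 0 lower, beside 37.5% and 24.3% of all genes, with a median of 1.72 against 0.14 over all genes. Padi6 was 4.13 ± 0.44 higher (limma, adjusted p = 1.05e-05), Nlrp5 3.60 ± 0.48 (5.81e-05), Ooep 2.21 ± 0.32 (0.000116), Tle6 2.13 ± 0.24 (1.68e-05) and Tcl1 2.10 ± 0.36 (0.000436). Dppa3 was 1.34 ± 0.32 higher (0.0038) and Zar1 1.07 ± 0.28 (0.00601). Npm2, Mos and Nlrp14 gave 0.48 ± 0.23, 0.44 ± 0.28 and -0.40 ± 0.41 and did not pass (0.0967, 0.201 and 0.438). All 3 mutant ovaries lay above all 3 testes in 9 of the 10 genes, against 42.8% of all genes, and below them in 1, Nlrp14, against 26.7%. The testis arrays are shared by both comparisons with testis, so the calls are not independent of each other.

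Markers of male germ cells moved with the testis arrays. The mean of 8 spermatid genes was 10.93 to 11.08 in testes and 3.85 to 4.08 in ovaries, and that of 5 genes of germ cells of both sexes (such as Ddx4 and Dazl) was 9.01 to 9.11 in testes, 5.27 and 3.97 in wild-type ovaries and 4.87 to 5.36 in mutant ovaries. The oocyte identity mean was 4.01 to 4.11 in testes. Their part in the level of Nlrp14 in testis was not tested.

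At P3 most of the members read lower in the KO pools, by amounts that did not pass over the whole table. Of the 9 measured genes, 0 had an adjusted p under 0.05, against 0.324% of all genes, in a comparison of 2 pools with 2. At an unadjusted p under 0.05, 7 of 9 were lower, against 4.83% of all genes, and 8 of 9 had both KO pools below both wild-type pools, against 19.7%. The median difference on the log2(signal + 16) scale was -0.38, beside -0.01 over all genes. Averaged over the 9 genes on that scale, wild-type pools read 12.75 and 12.91 and KO pools 12.36 and 12.28.

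**Figure D3:**
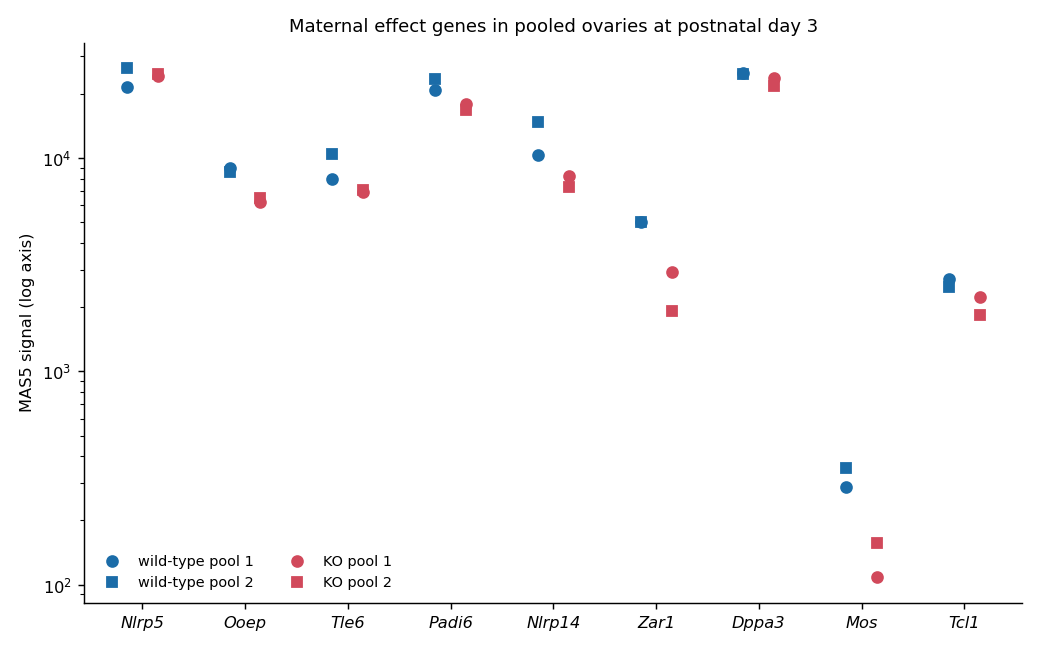
MAS5 signal of the 9 maternal effect genes in each P3 pool on a log axis, with 2 wild-type and 2 Foxl2 KO pools as separate points. Both KO points lie under both wild-type points in 8 of the 9 genes, and Nlrp5, at 21499 and 26365 against 24234 and 24670, is the gene whose pools overlap.

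Zar1 (P3 probe set 1434494_at) had signals of 4996 in each wild-type pool and 2925 and 1924 in the KO pools. The KO mean was 48.5% of the wild-type mean, and the difference was -1.07 ± 0.20 (unadjusted p = 0.00157, limma adjusted p = 0.118). Mos (1450775_at) had signals of 287.5 and 351.4 in wild-type pools and 108.1 and 157.1 in KO pools, or 41.5% of the wild-type mean, a difference of -1.19 ± 0.30 (unadjusted p = 0.00664, adjusted p = 0.226). These were the members with the lowest KO share. The Mos signals lay near or below the median of all genes on the P3 arrays (323.6 to 335.9), so the Mos share is read with caution. Zar1 passed when only genes at or above the median gene were tested (adjusted p = 0.0457), and its adjusted p ran from 0.00848 to 0.544 over the alternatives.

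Nlrp14 (1429409_at) had signals of 10374 and 14820 in wild-type pools and 8243 and 7335 in KO pools, 61.8% of the wild-type mean, with a difference of -0.67 ± 0.19 (limma, adjusted p = 0.279). Ooep (1460471_at) had 8940 and 8606 against 6214 and 6485, 72.4% of wild type, and gave -0.47 ± 0.11 (0.198). Tle6 (1448727_at) had 7961 and 10472 against 6947 and 7114, 76.3% of wild type, and gave -0.38 ± 0.16 (0.524). In each of these genes the pools of the genotypes did not overlap.

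Padi6 (1437084_at) had signals of 20874 and 23395 in wild-type pools and 17903 and 16696 in KO pools, 78.2% of the wild-type mean, with a difference of -0.35 ± 0.13 (limma, adjusted p = 0.431). Tcl1 (1422458_at) had 2694 and 2477 against 2235 and 1841, 78.8% of wild type, and gave -0.35 ± 0.14 (0.522). These pools did not overlap either. Dppa3 (1424295_at) had 24898 and 24750 against 23725 and 21856, 91.8% of wild type, and gave -0.12 ± 0.12 (0.845).

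Nlrp5 (1418882_at) had signals of 21499 and 26365 in wild-type pools and 24234 and 24670 in KO pools, 102% of the wild-type mean, a difference of 0.04 ± 0.14 (limma, adjusted p = 0.97). Its KO pools lay between its wild-type pools.

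**Figure D4:**
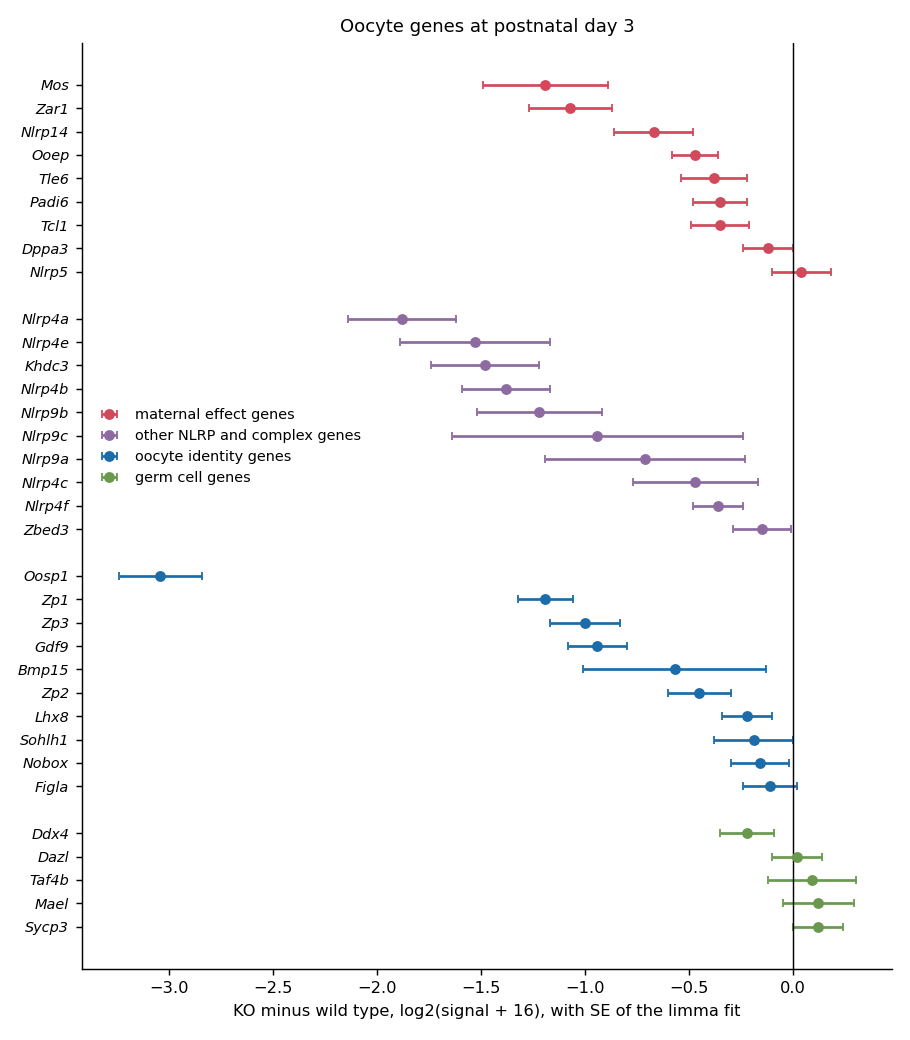
Difference between Foxl2 KO and wild-type pools at P3 on the log2(signal + 16) scale, as points with the SE of the limma fit as bars, for 9 maternal effect genes, 10 other NLRP and complex genes, 10 oocyte identity genes and 5 genes of germ cells of both sexes. The maternal effect genes run from -1.19 for Mos to 0.04 for Nlrp5, and the germ cell genes from -0.22 to 0.12.

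Markers of the oocyte and of germ cells in general were read in the same pools. Of the 10 oocyte identity genes, 2 fell and 0 rose at P3, against 0.324% of all genes called, with a median of -0.51. Oosp1, an oocyte-secreted protein, had signals of 1420 and 1341 in wild-type pools and 171.6 and 138.0 in KO pools, a difference of -3.04 ± 0.20 (limma, adjusted p = 0.00865). Zp1, a zona pellucida protein, fell by 1.19 ± 0.13 (0.0369). Of the 5 genes of germ cells of both sexes, 0 passed either way and 0 had an unadjusted p under 0.05, with differences from -0.22 to 0.12. Their summed signal was 31640 and 33926 in wild-type pools and 33892 and 34697 in KO pools, while that of the oocyte identity genes was 58206 and 65041 against 43414 and 41190. The difference between these lists was not tested.

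Relative to the mean of the oocyte identity genes in the same pool, most members stood higher in the KO pools, the opposite of their direction in signal. Both KO pools were above both wild-type pools in 6 of 9 members, against 81.4% of all genes, and below them in 1, Zar1, against 1.48%. Nlrp5 read 2.56 and 2.89 in wild-type pools and 3.44 and 3.66 in KO pools on this scale, and Zar1 read 0.46 and 0.49 against 0.39 and -0.01. The reference mean holds Oosp1, with its difference of -3.04, and most genes of the table move up on this scale. The members' share of 6 of 9 was not above that of all genes, and this measure has no test here.

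Markers of the somatic cells were also read in the same P3 pools. The mean log2(signal + 16) of 14 granulosa cell genes was 9.33 and 9.29 in wild-type pools and 8.32 and 8.24 in KO pools. Of the 14, 3 were called lower and 0 higher, against 0.324% of all genes called. Foxl2, the gene removed in the KO, is among the 14, so its own fall enters their mean and counts. At an unadjusted p under 0.05, 6 were lower, against 4.83% of all genes, and 1 higher. Their summed signal hardly differed, at 24582 and 23455 in wild-type pools and 23731 and 23713 in KO pools. The bright marker Amhr2 read 11577 and 10934 against 15147 and 16301. The same mean of 8 Sertoli cell genes was 7.88 and 7.63 against 8.59 and 8.70, with 0 of 8 called and 4 higher and 1 lower at an unadjusted p under 0.05. Differences were above 0 in 5 of the 8 and below 0 in 3. The share of all genes higher at that unadjusted p is not given here, so the counts of genes higher lack a background. Dmrt1 read 66.2 and 13.2 in wild-type pools against 397.9 and 288.6 in KO pools, while Sox9 read 155.8 and 54.0 against 188.4 and 176.9. The part of these somatic cells in the members' differences was not tested.

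For the further lists below, the shares of all genes called are those given above. They are 16.2% between mutant and wild-type ovary, and 35.9% lower and 24.4% higher in testis than in wild-type ovary. In mutant ovary against testis they are 37.5% higher and 24.3% lower. At P3 they are 0.324% called and 4.83% lower at an unadjusted p under 0.05. The other NLRP and subcortical maternal complex genes were read beside the members. In adult ovaries all 11 measured were higher in wild-type ovary 1, with a median of 1.44, and 0 of 11 passed between mutant and wild-type ovary, with 0 at an unadjusted p under 0.05. Without wild-type ovary 1, 9 of 11 were called higher in mutant ovaries; leaving out ovary 2 instead, 4 were called lower. Against wild-type ovary, testes had 8 of 11 lower and 1 higher, the latter being Nlrp4c (1.01 ± 0.33, limma adjusted p = 0.0216). These counts became 5 lower and 1 higher without wild-type ovary 1. With ovary 2 left out instead they were 10 and 0, and Nlrp4c gave 0.52 (adjusted p = 0.21). Against testis, mutant ovaries had 10 of 11 higher and 0 lower.

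At P3, 10 of these genes were measured, 0 passed and 6 had an unadjusted p under 0.05, all lower. All 10 differences were below 0, from -1.88 to -0.15, with a median of -1.08. Those with the highest mean signal were Nlrp4f, at 4925 and 5449 in wild-type and 4080 and 3961 in KO pools (-0.36 ± 0.12, limma adjusted p = 0.353), Zbed3, at 2855 and 2329 against 2364 and 2291 (-0.15 ± 0.14, 0.839), and Khdc3. Nlrp4a had signals of 468.5 and 608.8 in wild-type pools and 147.4 and 121.5 in KO pools, a difference of -1.88 ± 0.26 (limma, adjusted p = 0.0641). Khdc3 (also called Filia), a further protein of the subcortical complex, had 1343 and 1515 against 659.2 and 380.5, a difference of -1.48 ± 0.26 (0.107).

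Among 17 other maternal factors of the egg, 2 rose and 0 fell in adult mutant ovaries against wild type. This is not above the 16.2% of all genes called. Tet3, an enzyme that oxidises 5-methylcytosine in the zygote, rose by 0.60 ± 0.18 (limma, adjusted p = 0.0495), and Uchl1, a deubiquitinating enzyme of the egg, rose by 0.49 ± 0.12 (0.0184). Without wild-type ovary 2 both lost the call (0.45, adjusted p = 0.197, and 0.35, 0.0879), and 0 of the 17 were higher and 4 lower, while without wild-type ovary 1, 8 were higher and 1 lower. Against wild-type ovary, 11 of the 17 were lower in testis and 1 higher (10 and 4 without ovary 1, 14 and 1 without ovary 2). At P3, 0 of 16 passed. Dnmt1, the maintenance DNA methyltransferase, gave -0.98 there (adjusted p = 0.0641).

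Of the Tcl1b cluster, relatives of Tcl1, 0 of 5 passed between mutant and wild-type ovaries, 5 of 5 were lower in testis than in wild-type ovary, and 5 of 5 were higher in mutant ovaries than in testis. Without wild-type ovary 1, 3 of 5 were higher in mutant ovaries and 3 lower in testis; leaving out ovary 2 instead, 2 were lower in mutant ovaries and 4 in testis. At P3, 0 of 3 passed.

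Of the genes through which Mos acts and others of meiotic arrest, 8 of 13 were measured. In adult mutant ovaries 2 fell and 0 rose: Map2k1, the MAP kinase kinase that Mos phosphorylates, by 0.94 ± 0.15 (limma, adjusted p = 0.00176), and Cdk1, the mitotic and meiotic cyclin-dependent kinase, by 0.47 ± 0.14 (0.0429). Both are expressed in many cell types, and Cdk1 lost the call without wild-type ovary 1 (-0.36, adjusted p = 0.161), where 2 of the 8 genes were higher and 1 lower. Leaving out wild-type ovary 2 instead gave -1.17 for Map2k1 and -0.58 for Cdk1. The median of the 8 genes was 0.12 without ovary 1 and -0.41 without ovary 2. In testis against wild-type ovary 4 fell and 1 rose. The latter was Fbxo43 (Emi2), an inhibitor of the anaphase-promoting complex, at 2.47 ± 0.17 (2.71 without ovary 1, 2.23 without ovary 2). The testis median of the 8 genes was -0.51 without ovary 1 and -1.34 without ovary 2. At P3, 0 of 8 passed.

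Relatives, namesakes and partners of the members were read as well, most of them not specific to the egg. Of 15 measured, 4 rose and 1 fell in adult mutant ovaries against wild type (5 and 3 without ovary 1, 4 and 2 without ovary 2). Padi2, a relative of Padi6 found in many tissues, read 4.54 and 4.59 in wild-type ovaries, 8.29, 7.51 and 7.19 in mutant ovaries and 4.40, 4.69 and 4.59 in testes. It rose by 3.10 ± 0.26 (limma, adjusted p = 2.87e-05), and its groups did not overlap. Tle4, a Groucho co-repressor related to Tle6, rose by 1.39 ± 0.22 (0.00201), Tle3 by 0.44 ± 0.12, and Akt2 by 0.63 ± 0.10, while Npm1, a relative of Npm2, fell by 0.58 ± 0.14. Without either wild-type ovary these kept their direction, and Tle3 lost the call without wild-type ovary 1 (0.34, adjusted p = 0.135). Sertoli cell markers moved with these rises: the mean of 7 such genes was 5.84 and 5.73 in wild-type ovaries, 8.18 to 8.53 in mutant ovaries and 6.77 to 6.84 in testes, and 6 of 7 were called higher in mutant than in wild-type ovaries. Their part in the rises was not tested. At P3, 0 of 15 passed.

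The genes most like the group were sought by the mean absolute distance, over the 8 adult arrays, between a gene's centred profile and the members' centred mean profile. The nearest 10 that are not members were H1f8, the linker histone of the oocyte (0.07), Tcl1b3 (0.08), Fbxw20 (0.10), Nlrp4f (0.11), Dclk2 (0.11), Kpna7 (0.12), Nlrp9c (0.12), Kcnk1 (0.13), Zbed3 (0.13) and Sytl4 (0.13). H1f8 read 6.10 and 4.45 in wild-type ovaries, 5.77, 5.93 and 5.53 in mutant ovaries and 4.19, 3.98 and 4.00 in testes. Of these 10, 5 stand on the other lists of egg genes above. The members' own distances to their mean profile ran from 0.20 (Dppa3) to 1.04 (Nlrp14), with Padi6 at 1.00 and Nlrp5 at 0.81. Of the 19938 genes, 46 were as near or nearer than Dppa3, but 10174 than Nlrp5, 15105 than Padi6 and 15481 than Nlrp14. The mean profile, and so the genes nearest to it, does not stand for these last members.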

How the data were processed

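Biotin-labelled RNA from whole ovaries or part of a testis was hybridised to arrays, starting from 300 ng in adults and 1 µg at P3, per the labels' protocols. For adults the authors deposited log2 levels computed by RMA (Affymetrix Expression Console), and for P3 the authors deposited linear intensity values computed by MAS5, both per the submitters' processing notes. The labels give a CodeLink labelling protocol for P3, although MAS5 and the probe set names are of Affymetrix form; this was not resolved. Adult samples are separate animals and P3 samples separate pools, and the number of arrays limits the precision.

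Probe sets listed with a single gene were kept (21789 of 35557 adult and 34958 of 45101 P3), symbols were updated through the RefSeq table of GRCm38.p6, and the probe set with the highest mean stood for a gene. Tests used limma 3.58.1 in R 4.3.3 (lmFit, eBayes with trend, two-sided): the 8 adult arrays in one fit with a mean per group, and the 4 P3 arrays alone as log2(signal + 16), a scale that understates changes of dim genes. The threshold was an adjusted p of 0.05 (Benjamini-Hochberg, across every gene in the table concerned). The script was tested on simulated data. The named genes were all 10 members, Foxl2, of each other list those past the threshold in the comparison described or its 3 highest, and the 10 genes nearest in profile; Nlrp4a and Dnmt1 were named after their values were seen. The members and lists were chosen with earlier results of these data known. Alternatives were other normalizations, pseudocounts, filters, probe set rules, fits without trend, a replicate block and leaving out each array. Same-numbered samples did not deviate together (r at most 0.08), so numbers were not used as pairs.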

Additional observations from a re-analysis of the deposited data

How the results depend on the processing

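Outside the settings that leave out an array, 218 of 230 values for single members kept their direction and side of the threshold, 4 lost and 6 gained the call, and 2 reversed: Mos between mutant and wild-type adult ovary with centred arrays (-0.0048) and Nlrp5 at P3 with quantile normalization (-0.097). In every member the mutant mean lay between the wild-type ovaries, so leaving out one or the other of them must give opposite signs. Leaving out 1 array at a time moved the mutant minus wild-type value of every member across 0: Nlrp5 from -0.24 to 2.14, Ooep from -0.91 to 0.63, Tle6 from -0.69 to 0.50, Padi6 from -0.11 to 2.24, Nlrp14 from -0.41 to 1.71, Zar1 from -0.46 to 0.87, Npm2 from -0.22 to 0.80, Dppa3 from -0.31 to 1.02, Mos from -0.68 to 0.69 and Tcl1 from -0.40 to 1.13, with 0 to 9 members called. In testis minus wild-type ovary it moved Nlrp14 from -0.0144 to 2.10, Npm2 from -0.70 to 0.32 and Mos from -1.13 to 0.25, with 5 to 9 members called, and at P3 it moved Nlrp5 from -0.11 to 0.19, with 0 members called throughout. In mutant ovary minus testis 7 members were called throughout.

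Over all genes, mutant against wild-type ovary gave 1731 calls with these groups alone in the fit, 1119 past a 2-fold change and 2540 to 3760 when an array was left out, against 3232. Testis against wild-type ovary gave 8000 with genes at or above the median gene, 6909 past 2-fold and 10962 to 11441 without an array, against 12028. Mutant ovary against testis gave 7181 past 2-fold and 11369 to 11862 without an array, against 12328. At P3, against 59, the calls were 0 without the trend (limma; 1736 genes at an unadjusted p under 0.05), 22 with the mean of a gene's probe sets, 186 with the filter on dim genes, and 0 to 22 without an array, with 0 when either KO pool was left out (1282 and 1119 at an unadjusted p under 0.05). The filter tests fewer genes and the left-out arrays leave fewer samples; the cause of the other changes was not tested.

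With the replicate number as a block, P3 gave 305 calls, 1 of them a member (Zar1, adjusted p = 0.00848), as the filter on dim genes also gave 1. In testis against wild-type ovary the block ended the calls of Zar1 (-0.89, adjusted p = 0.0547) and Dppa3 (-0.83, 0.0603), as did a fit of these groups alone (0.0707 and 0.0505). Same-numbered samples share only a number. A fit of mutant ovary and testis alone also called Nlrp14 (0.0282), Npm2 (0.00967) and Mos (0.0131), and centred arrays called Nlrp14 higher in testis than in wild-type ovary (0.0495). With 2 wild-type ovaries and 2 pools a group, differences well inside their spread were not detectable.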
